A study of Mus musculus domesticus and Mus musculus domesticus x Mus musculus castaneus and Mus musculus castaneus with 10 samples.

Results

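Expression of 9 genes of Polycomb repressive complex 2 (PRC2) was measured by RNA-seq in CAST homozygous stem cells. The genes were taken by symbol from a fixed list and matched to Ensembl identifiers. All 9 were found among the 26808 genes counted, and all 9 passed the minimum of 10 counts over both libraries that 13824 genes passed. They were the core subunit genes Ezh1, Ezh2, Eed and Suz12, and the accessory subunit genes Aebp2, Jarid2, Mtf2, Phf1 and Phf19. Aebp2 is also one of the regulators whose binding sites the study examined upstream of translation genes.

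The cells were induced pluripotent stem cells of the strain CAST/EiJ, an inbred line of M. m. castaneus, made from embryonic fibroblasts with retroviral Oct4, Sox2 and Klf4. They were grown undifferentiated on irradiated fibroblast feeder cells with LIF, and the feeders were depleted before RNA was extracted. The group held 2 libraries, and the labels give each a batch entry of its own, and a batch effect cannot be told apart from any other difference between the replicates. Only messenger RNA selected by its poly(A) tail was sequenced. The study also sequenced 4 libraries of 129 stem cells and 4 of the 129CAS hybrid, which were not analysed here. With 1 group of 2 libraries there is no comparison between strains and no test, and each SD below describes the spread between 2 samples that the labels do not say came from separate cultures.

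PRC2 places methyl groups on lysine 27 of histone H3, a mark of repressed developmental genes. Its core joins a catalytic subunit, either Ezh1 or Ezh2, to Eed, which reads the mark, and to Suz12, which holds the complex together. Accessory subunits bind the core in alternative forms, one with Aebp2 and Jarid2 and the other with a Polycomb-like protein (Mtf2, Phf1 or Phf19), and they help to bring it to CpG-rich chromatin. Embryonic stem cells are a classical system for PRC2, which can be removed from them without loss of self-renewal but is needed for orderly differentiation.

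The libraries held 14460393 counts (replicate 1) and 13728098 counts (replicate 2). The unit of level is CPM, a gene's counts per 1000000 in its library, and levels of different genes are compared as CPM per kilobase of the longest annotated coding transcript unless another length is named. Of 9 pluripotency markers listed, 7 were analysed and the other 2 were not analysed here. All 7 were above 3 counts in both libraries, and their CPM summed to 3894 in replicate 1 and 3228 in replicate 2. Of the 7, 2 were at least 1.5-fold apart between the libraries, a share near the 24.3% of all genes. Klf4 (333 and 147 CPM, 2.17-fold) and Esrrb (903 and 556 CPM, 1.56-fold) were at least 1.5-fold higher in replicate 1, none was so in replicate 2, and Pou5f1, which encodes Oct4, had 547 and 731 CPM. Klf4, Pou5f1 and Sox2 were also the retroviral factors. Transcripts of the vectors and of the cells' own genes cannot be told apart in these counts. The 9 fibroblast feeder markers were also all above 3 counts in both libraries, with CPM summing to 3889 in replicate 1 and 1961 in replicate 2. Of these, 6 were at least 1.5-fold higher in replicate 1 (Fbn1, Col1a2, Lox, Col3a1, Thy1 and Col1a1, from 2.13-fold to 4.65-fold), while Sparc, Dcn and Pdgfrb were within 1.5-fold. The share of all genes that far apart in either direction was 24.3%. Fibroblast and stem cell transcripts cannot be separated in these bulk counts, and neither can fewer cells of a type and less RNA per cell. Of the 5 motor neuron markers, Chat had 0 counts in both libraries (which allows up to 0.207 and 0.219 CPM, the value of 3 counts), Mnx1 had 9 and 11 and Isl1 13 and 5. The general neuronal genes on that list were detected, Tubb3 with 1174 and 607 counts and Map2 with 111 and 56. Tubb3, Map2 and Isl1 were at least 1.5-fold higher in replicate 1, beside 24.3% of all genes apart in either direction. The counts of Isl1 were too low for a firm statement.

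PRC2 transcripts were abundant as a group. The 9 genes together held 30636 counts in replicate 1 and 32043 in replicate 2, equal to 0.212% and 0.233% of each library. Per kilobase, 7 of the 9 lay above the median of the 13824 genes, 7.12 CPM per kilobase, in both libraries, and Phf1 below it in both. Ezh1 was near it, at 5.34 in replicate 1 and 9.59 in replicate 2. By this length Suz12 was the highest in both libraries, at 143 and 161 CPM per kilobase, and Phf1 the lowest, at 2.22 and 4.87. With the mean length of the coding transcripts Suz12 was in place 3, at 153 CPM per kilobase after Mtf2 (216) and Jarid2 (170), and Phf1 remained the lowest.

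**Figure D1:**
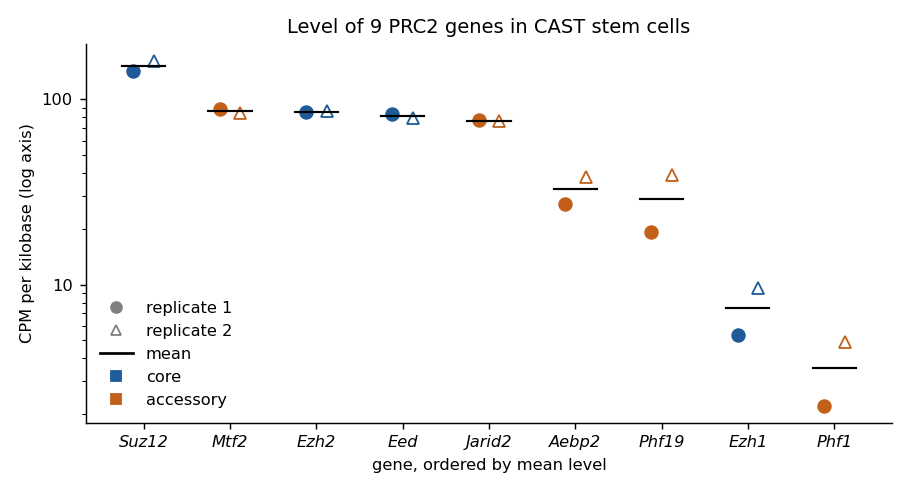
Level of each PRC2 gene in CPM per kilobase of its longest coding transcript (log axis), with filled circles for replicate 1, open triangles for replicate 2, black bars for the mean of both, blue for core and orange for accessory genes. With this length Suz12 (mean 152) lies above the rest, Mtf2, Ezh2, Eed and Jarid2 lie together between 76.6 and 86.4, and Ezh1 (7.47) and Phf1 (3.55) lie lowest.

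Suz12 (ENSMUSG00000017548, chromosome 11 of GRCm38, 79993106 to 80034123, plus strand), the scaffold of the core, had 9032 counts in replicate 1 and 9688 in replicate 2, or 625 and 706 CPM. Its level was 152 ± 13.1 CPM per kilobase (SD, n = 2), above 96.9% of the genes kept. It exceeded Ezh2 by 1.68 times in replicate 1 and 1.85 times in replicate 2, and Eed by 1.71 and 2.04 times. The size of this lead depended on the length used. With the length of all exons the means were 135 for Suz12, 43.9 for Eed and 35.9 for Ezh2, and with the mean transcript length they were 153, 128 and 120 CPM per kilobase.

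Ezh2 (ENSMUSG00000029687, chromosome 6, 47530139 to 47595341, minus strand), the catalytic subunit of proliferating cells, had 3435 and 3330 counts, or 238 and 243 CPM. The libraries were close together, at 86.1 ± 1.27 CPM per kilobase (SD, n = 2). Eed (ENSMUSG00000030619, chromosome 7, 89954654 to 89980983, minus strand) had 2497 and 2242 counts, or 173 and 163 CPM, and a level of 81.3 ± 3.20 CPM per kilobase (SD, n = 2). The replicate ranges of Ezh2 and Eed did not overlap, but their means were only 1.06-fold apart, and under both other lengths Eed was above Ezh2.

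Ezh1 (ENSMUSG00000006920, chromosome 11, 101191115 to 101226463, minus strand), the alternative catalytic subunit and the one usually linked to non-dividing tissue, had 325 and 554 counts, or 22.5 and 40.4 CPM. At 7.47 ± 3.01 CPM per kilobase (SD, n = 2) it stood near the middle of the genes kept, above 50.9% of them. Ezh2 exceeded Ezh1 by 16.0 times per kilobase in replicate 1 (95% exact interval 14.2 to 17.9) and by 9.07 times in replicate 2 (8.29 to 9.95). Those intervals cover counting error only and do not overlap, so the ratio differed between the libraries by more than counting error, through Ezh1 and not Ezh2. Ezh2 was the main catalytic transcript in both libraries.

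Ezh1 and Ezh2 are paralogs, and reads could be shared between them only where their sequences are identical. The longest identical run between their coding sequences (GENCODE M21, reference strain C57BL/6J) was 17 bases close to the 3′ end of both. It is shown in capitals within the last 66 coding bases of each gene, where the pair differ at 13 positions, to show how short the stretch is over which a read could not be told apart. The Ezh1 stretch lies at chr11:101192942-101193226 (minus strand, exons 20 to 21) and the Ezh2 stretch at chr6:47530544-47531748 (minus strand, exons 19 to 20).
Ezh1: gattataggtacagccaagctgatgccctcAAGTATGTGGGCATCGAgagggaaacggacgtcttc
Ezh2: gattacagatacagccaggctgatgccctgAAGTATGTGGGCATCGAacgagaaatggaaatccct
No stretch of 75 bases of the longest Ezh1 transcript occurred in a transcript of any other gene. For Ezh2 the share of such stretches was 0.7%, all of them on the opposite strand of the overlapping noncoding gene Gm26625.

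Among the accessory genes, Mtf2 and Jarid2 were high, Aebp2 and Phf19 intermediate and Phf1 low. Mtf2 (ENSMUSG00000029267, chromosome 5, 108065674 to 108109004, plus strand), a Polycomb-like protein that binds unmethylated CpG-rich DNA, had 5206 and 4690 counts, or 360 and 342 CPM. Its level of 86.4 ± 3.20 CPM per kilobase (SD, n = 2) did not differ from that of Ezh2 beyond the spread between libraries, but with the length of all exons Mtf2 was at 61.6 against 35.9 for Ezh2, and with the mean transcript length at 216 against 120. Jarid2 (ENSMUSG00000038518, chromosome 13, 44729474 to 44921643, plus strand), a member of the Jumonji family without demethylase activity, had 6685 and 6270 counts, or 462 and 457 CPM. Its level was 76.6 ± 0.657 CPM per kilobase (SD, n = 2).

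Aebp2 (ENSMUSG00000030232, chromosome 6, 140622663 to 140678472, plus strand), a zinc finger protein that stabilises the core, had 2339 counts in replicate 1 and 3098 in replicate 2, or 162 and 226 CPM. Its level was 32.7 ± 7.62 CPM per kilobase (SD, n = 2), above 81.4% of the genes kept. It was the lower of the pair that defines its form of the complex: Jarid2 exceeded Aebp2 by 2.83 times per kilobase in replicate 1 and by 2.00 times in replicate 2. Aebp2 made up 12.7% of the CPM per kilobase of the 5 accessory genes in replicate 1 and 15.7% in replicate 2.

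Phf19 (ENSMUSG00000026873, chromosome 2, 34893757 to 34914026, minus strand), a Polycomb-like protein with a Tudor domain that reads methylated lysine 36 of histone H3, had 1036 and 2002 counts, or 71.6 and 146 CPM. Its mean of 29.1 ± 14.0 CPM per kilobase (SD, n = 2) lay next to that of Aebp2, and the replicate ranges of the pair overlapped. Phf19 stood at 0.702 times Aebp2 in replicate 1 and at 1.02 times in replicate 2, so that their order was not the same in both libraries. Phf1 (ENSMUSG00000024193, chromosome 17, 26933052 to 26937908, plus strand), the remaining Polycomb-like gene, had 81 and 169 counts, or 5.60 and 12.3 CPM, and a level of 3.55 ± 1.88 CPM per kilobase (SD, n = 2). Mtf2 exceeded Phf1 by 40.0 times in replicate 1 and 17.3 times in replicate 2. By mean level Mtf2 was the highest Polycomb-like gene under each of the 3 lengths, at 216 CPM per kilobase against 3.76 for Phf1 with the mean transcript length.

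The 3 Polycomb-like genes also shared little sequence. The longest identical run between coding sequences was 17 bases for Mtf2 and Phf1, 17 bases for Phf1 and Phf19, and 14 bases for Mtf2 and Phf19. The runs of 17 bases are shown in capitals with 30 coding bases on each side, because low Phf1 counts next to high Mtf2 counts would be uncertain if reads could not be told apart. The windows of Mtf2 (chr5:108088043-108092090, plus strand, exons 6 to 7) and Phf1 (chr17:26935351-26935569, plus strand, exons 6 to 7) differ at 19 of 77 positions.
Mtf2: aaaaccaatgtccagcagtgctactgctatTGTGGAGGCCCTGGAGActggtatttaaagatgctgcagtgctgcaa
Phf1: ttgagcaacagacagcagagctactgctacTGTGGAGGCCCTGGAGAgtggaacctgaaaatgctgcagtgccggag
A second window of Phf1 (chr17:26935547-26935623, exon 7) and that of Phf19 (chr2:34904067-34904143, minus strand, exon 7) differ at 24 of 77 positions.
Phf1, exon 7: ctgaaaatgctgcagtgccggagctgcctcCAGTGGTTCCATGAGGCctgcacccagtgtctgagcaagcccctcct
Phf19, exon 7: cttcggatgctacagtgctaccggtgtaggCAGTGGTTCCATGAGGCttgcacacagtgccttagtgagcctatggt
Overlap with other genes concerned Phf1 more. Cuta, a gene on the opposite strand with 631 and 630 counts, covers 4090 bases of the Phf1 locus, and 10.97% of the 75-base stretches of the longest Phf1 transcript also lie in a transcript of Cuta or of AC144621.3 on the opposite strand. For Eed and Mtf2, which overlap E230029C05Rik and Tmed5 on the opposite strand, the shares were 9.38% and 8.08%, and for Suz12, which overlaps Gm26563, 2.47%. No such stretch was found for Aebp2, Jarid2 or Phf19. The strand setting of the counting is not given in the sources used here, so that Phf1 reads from the shared part cannot be told apart from those of Cuta or AC144621.3.

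Core and accessory genes were compared as classes. The 4 core genes held 49.9% of the counts of the 9 genes in replicate 1 (95% exact interval 49.3% to 50.5%) and 49.4% in replicate 2 (48.8% to 49.9%), close to equal shares. Per kilobase the core held 58.9% ± 1.04 (SD, n = 2), with 59.6% and 58.2% in the libraries, and summed to 327 ± 14.2 CPM per kilobase against 228 ± 19.7 for the accessory genes. This order holds for the 9 listed genes only. Rbbp4, also a core protein, and Epop, also an accessory one, were not among them, at 155 and 219 CPM per kilobase. The order also depended on the length used. With the length of all exons the core share was again 58.9%, but with the mean length of the coding transcripts it was 44.5%, below the accessory share, since Mtf2, Jarid2 and Aebp2 have many short annotated transcripts.

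Within the core, Suz12 held 46.5% ± 1.99, Ezh2 26.4% ± 0.754, Eed 24.9% ± 2.06 and Ezh1 2.27% ± 0.821 of the CPM per kilobase (SD, n = 2). Within the accessory genes, Mtf2 held 38.1% ± 4.68, Jarid2 33.7% ± 3.19, Aebp2 14.2% ± 2.11, Phf19 12.5% ± 5.06 and Phf1 1.52% ± 0.691. Among the listed accessory genes the alternative forms were close in summed level. The sums were 109 ± 6.96 CPM per kilobase for Aebp2 and Jarid2 and 119 ± 12.7 for Mtf2, Phf1 and Phf19 (SD, n = 2). Epop, which joins the Polycomb-like form, was outside this list and is not in these sums. Its mean level alone, 219 CPM per kilobase, was above either sum, so the closeness holds for the listed genes only. Aebp2 and Jarid2 held 48.7% and 47.2% of the accessory CPM per kilobase in the libraries, and 43.9% on average with the length of all exons. These are shares of transcripts, and protein was not measured.

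**Figure D2:**
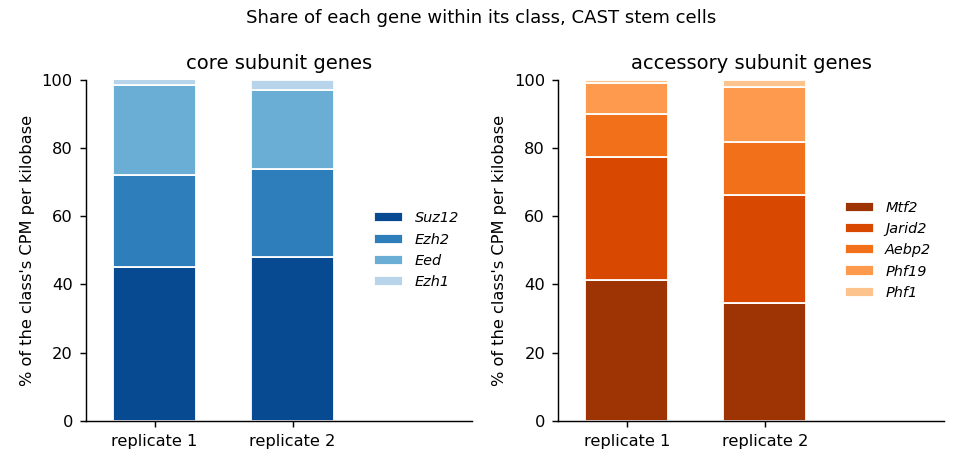
Share of each gene in the summed CPM per kilobase of its class, in percent, for the 4 core genes (left) and the 5 accessory genes (right), with 1 stacked bar per library. Suz12 holds 45.1% and 47.9% of the core, while Mtf2 takes 41.4% of the accessory genes in replicate 1 and 34.7% in replicate 2, where Phf19 is larger (8.93% and 16.1%).

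**Figure D3:**
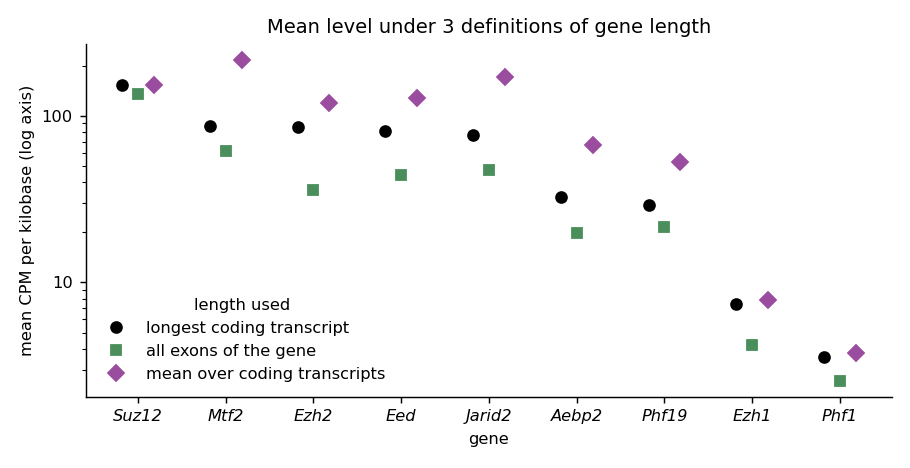
Mean CPM per kilobase of each gene (log axis) when its counts are divided by the length of the longest coding transcript (black circles), of all its exons (green squares) or by the mean length of its coding transcripts (purple diamonds). Suz12, Mtf2, Ezh2, Eed and Jarid2 take the first 5 places under each of the 3 lengths and Ezh1 and Phf1 the last, while the order within the first 5 changes, with Mtf2 first and Suz12 at place 3 by the mean transcript length.

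The libraries were then compared gene by gene, to see which levels held between them. Ratios of replicate 1 to replicate 2 were computed on the log2(CPM + 0.5) scale after TMM scaling, and with 1 library on each side they have no replicate check. Over the 13824 genes, 24.3% were at least 1.5-fold apart in either direction and 10.9% were at least 1.5-fold higher in replicate 2. Among the 8746 genes within the CPM range of the PRC2 genes, 15.6% were at least 1.5-fold apart. Of the 9 PRC2 genes, 3 were at least 1.5-fold apart, and all 3 were higher in replicate 2. They were Phf1 (2.18-fold), Phf19 (2.11-fold) and Ezh1 (1.85-fold), 1 core and 2 accessory genes. These were also the 3 genes of the list with the lowest CPM, although all had more than 80 counts in each library.

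The log2 ratio of Phf1 was -1.13 (95% exact interval -1.60 to -0.80, counting error only), further from 0 than that of 93.1% of the genes kept. That of Phf19 was -1.08 (-1.19 to -0.98), further than 92.3%, and that of Ezh1 was -0.89 (-1.11 to -0.70), further than 88.3%. Aebp2 came next with a log2 ratio of -0.54 (-0.62 to -0.46), 1.45-fold higher in replicate 2 and just inside the 1.5-fold limit. None of these intervals reached 0, so each of these genes differed between the libraries by more than counting error. Without replicate 2 the mean levels fall to those of replicate 1, 71.6 CPM for Phf19 and 5.60 CPM for Phf1, more than 1.5 times below the means of 109 and 8.96 CPM.

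The other 5 genes were nearly level. The log2 ratios were -0.23 for Suz12, -0.09 for Ezh2, -0.04 for Jarid2, 0.02 for Eed and 0.02 for Mtf2, each closer to 0 than the median size over all genes, 0.31. The intervals of Jarid2, Eed and Mtf2 included 0. In all, 7 of the 9 genes had the higher value in replicate 2 and 2 in replicate 1 (6 and 3 with library totals, where Jarid2 changed sign), while 49.6% of all genes kept were higher in replicate 2. The median log2 ratio was -0.23 over the 9 genes and 0.00 over all genes. Of the markers, 6 of 9 feeder genes and 2 of 7 pluripotency genes were at least 1.5-fold higher in the other library, replicate 1. Of all genes, 24.3% were that far apart in either direction. The part of the markers in the differences of the PRC2 genes was not tested.

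**Figure D4:**
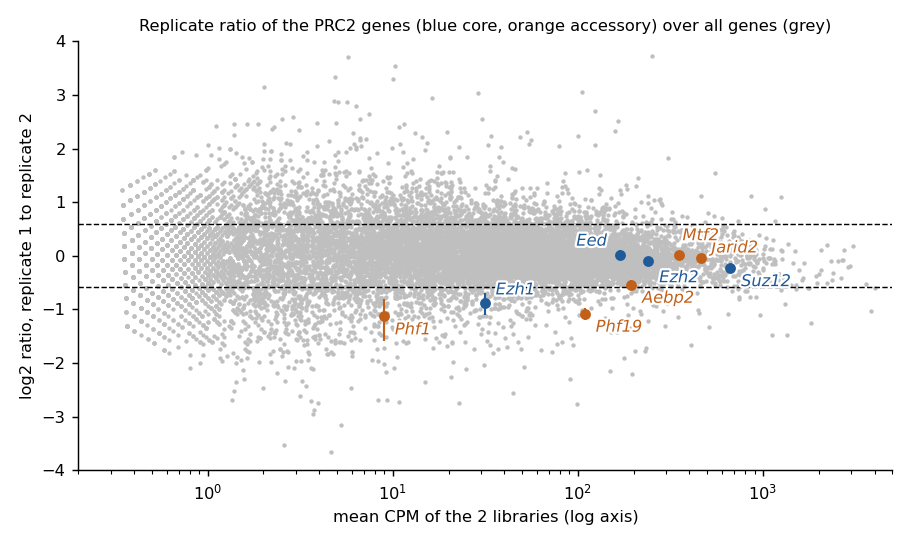
Log2 ratio of replicate 1 to replicate 2 against the mean CPM of both libraries (log axis) for genes with at least 10 counts (grey points, of which 7 lie outside the axes) and for the PRC2 genes (blue core, orange accessory), with bars for the 95% exact counting interval and dashed lines at 1.5-fold. Phf1, Phf19 and Ezh1 lie below the lower line, Aebp2 just above it, and Eed, Mtf2, Jarid2, Ezh2 and Suz12 near 0.

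The other Polycomb genes were described from lists of known partners. Of the 6 other PRC2 partners listed, 4 were analysed, Epop and Rbbp4 at high and Lcor and Lcorl at low levels. Epop, a stem cell subunit that joins the Polycomb-like form, was the highest at 219 CPM per kilobase, with 8175 and 6131 counts. Rbbp4, the histone-binding protein of the core, had 8784 and 10466 counts and 155 CPM per kilobase. Lcorl was the lowest at 4.99 CPM per kilobase, with 364 and 436 counts. None of the 4 was 1.5-fold apart between the libraries. Rbbp7 and Ezhip were not analysed here.

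PRC1, the partner complex that places ubiquitin on histone H2A, was represented by 22 genes, all above 3 counts in both libraries. Their median was 52.2 CPM and 13.3 CPM per kilobase, below the medians of the PRC2 core (83.7 CPM per kilobase) and accessory genes (32.7). Phc1, a subunit that forms polymers, was the highest at 138 CPM per kilobase, with 7855 and 8537 counts. Cbx8, one of the readers of methylated lysine 27, was the lowest at 1.43 CPM per kilobase, with 74 and 70 counts. Between the libraries, 4 PRC1 genes were at least 1.5-fold higher in replicate 1, namely Bcorl1 (1.90-fold), Rybp (1.75-fold), Ring1 (1.70-fold) and Cbx2 (1.52-fold), and 1 was higher in replicate 2, Pcgf5 (1.51-fold). The median log2 ratio of the PRC1 genes was 0.06. Genes past 1.5-fold made up 5 of these 22, beside 24.3% of all genes.

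The enzymes that remove the marks of PRC2 and PRC1 were also present. The demethylases of lysine 27, Kdm6b and Kdm6a, had 26.0 and 13.8 CPM per kilobase, with 2950 and 1955 counts for Kdm6b and 1236 and 1073 counts for Kdm6a, and neither was 1.5-fold apart. Of the H2A deubiquitinase genes, Bap1, the enzyme, had 27.3 CPM per kilobase and its partner Asxl3 0.102. Asxl3 had 26 and 8 counts and was the only one of the 3 analysed to pass 1.5-fold, 2.07-fold higher in replicate 1, at counts too low for a firm statement. Asxl1 was not analysed here.

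**Figure D5:**
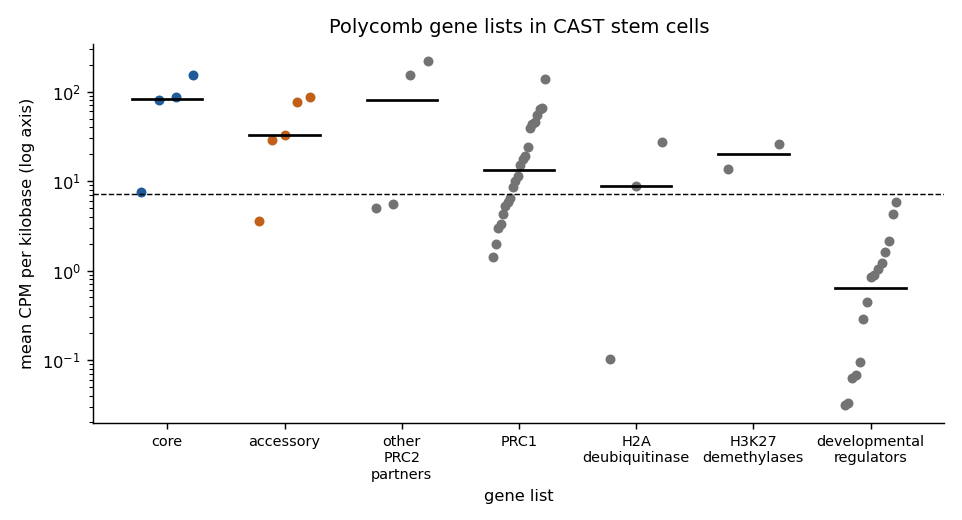
Mean CPM per kilobase (log axis) of each gene of 7 lists in CAST stem cells, with a black bar for the median of each list and a dashed line for the median of all genes kept (7.12), and with Olig2, at 0 counts in both libraries, left out of the points. The core PRC2 genes other than Ezh1 lie among the highest points, the PRC1 genes spread from 1.43 to 138, and all developmental regulators lie below the dashed line.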

How the data were processed

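The authors deposited whole-number read counts per gene, without normalization, listed by Ensembl identifier. The 2 columns of CAST stem cells were used. Another 7 columns hold values of samples that the labels do not name and were left out. The paper's methods name STAR, the CAST/EiJ genome and removal of reads mapping to more than 1 locus, whereas the submitters' processing notes for these samples name TopHat2 2.1.1, SAMtools and HTSeq with the build GRCm38. Which of them made this table is not given in the sources used here.

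Symbols, positions, lengths and sequences came from GENCODE M21 (GRCm38), and all 26808 identifiers had a symbol. Coding stretches are of the reference strain C57BL/6J, not of CAST. CPM used library totals. Ratios used TMM scaling (edgeR 4.0.16, R 4.3.3), a pseudocount of 0.5 CPM and a minimum of 10 counts over both libraries. Their code was tested on simulated data, with planted changes larger than 1.5-fold and only in well-counted genes. Recovery of planted changes in genes with few counts was not tested. The 1.5-fold limit describes the spread between 2 libraries, whose common biological coefficient of variation was 0.278. Intervals are exact (Clopper-Pearson, 95%) and cover counting error only. DESeq2 1.42.0 size factors, library totals, other pseudocounts, filters and lengths were the alternatives. Tables, intervals and plots were made in Python 3.11.15 (pandas 2.3.3, numpy 2.4.6, matplotlib 3.10.9, scipy 1.17.1). The genes, lists and measures were chosen with earlier results of these data known. Every member is named, and of each other Polycomb list (not of the cell type markers) the highest and lowest detected gene per kilobase and any gene past 1.5-fold. No gene was named for a pattern like that of a member, since 2 samples of 1 group give no pattern to compare.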

Additional observations from a re-analysis of the deposited data

How the results depend on the processing

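No paired analysis was possible because a single group was used. The 3 PRC2 genes at least 1.5-fold apart (Ezh1, Phf1 and Phf19) were the same under library totals, size factors of DESeq2, pseudocounts of 0.1 and 2 CPM and both other filters, and 2 genes passed a 2-fold limit. The number of all genes 1.5-fold apart, 3362, fell to 2119 with a pseudocount of 2 CPM, which draws low genes together, and 1259 genes passed 2-fold. Of 54 recomputed log2 ratios of the PRC2 genes, 3 left their counting interval, all with library totals (Suz12 -0.18, Jarid2 0.02, Mtf2 0.08).

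The core share of the counts, 49.6% on average, was 48.9% without Ezh1. Per kilobase, 58.9% became 44.5% with the mean transcript length. The share of Aebp2 and Jarid2 among the accessory genes, 47.9%, was 43.9% with the length of all exons and 46.5% with the mean transcript length. With 1 library left out, the median ranged from 53.5 to 56.5 CPM for the PRC1 genes (52.2 with both) and from 80.8 to 93.9 CPM for the H2A deubiquitinase genes (94.3 with both). The Ezh2 to Ezh1 ratio, 12.5 on average, ranged from 9.07 to 16.0 with 1 library left out, and was 9.24 with the length of all exons and 16.6 with the mean transcript length.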

Other observations

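Developmental regulators known as Polycomb targets in stem cells were low in both libraries. The list held 16 genes, with a median of 1.97 CPM, and 6 of them (Nkx2-2, Cdx2, Foxa2, Hoxa11, Olig2 and Neurog2) were at or under 3 counts in both libraries, where no difference was detectable at this depth. T, a mesoderm regulator, was the highest at 5.77 CPM per kilobase, with 113 and 217 counts, and Tlx1 the lowest of the 10 genes above 3 counts in both, with 12 and 5 counts.

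Of those 10 genes, 5 were at least 1.5-fold higher in replicate 2 and 1 in replicate 1, against 10.9% of all genes higher in replicate 2 and 24.3% in either direction. Most of these genes had few counts, and the share among genes of similarly low counts was not computed. Gata6, an endoderm regulator, had 10 counts in replicate 1 and 99 in replicate 2. Hand1 had 4 and 51 counts, Pax6 13 and 41, T 113 and 217, and Gata4 59 and 96, while Tlx1 was the one higher in replicate 1. The median of the list was 0.761 CPM without replicate 2 and 2.62 CPM without replicate 1, so that it rests on replicate 2. Of the 7 pluripotency markers, 2 were at least 1.5-fold apart, beside 24.3% of all genes in either direction. Both were lower in replicate 2 (Klf4, 147 CPM against 333, and Esrrb, 556 against 903). Whether these genes and the PRC2 genes that were higher in the same library moved together was not tested.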
